A study of Mus musculus with 9 samples.

Results

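Transcription factors that set the identity of the intestinal epithelium were followed in cultured organoids of mouse small intestine, closed epithelial structures that hold dividing cells beside their differentiated progeny. The genes were Cdx1, Cdx2, Gata4, Gata6, Klf4, Klf5, Sox9 and Elf3, and every probe set annotated with 1 of these 8 symbols was taken, whatever its values. That gave 17 of the 45101 probe sets on the array, for 8 of the 18194 genes named there. Organoids were given TGF-beta1 ligand at 0.04 ng/mL (3 arrays), an inhibitor of the TGF-beta receptors (TgfbR1/2) at 20 uM (3 arrays), or no treatment (3 arrays). Treatment ran for 5 days from day 1 of a 6-day culture, and no genotype, strain or age is given in the sources used here for any of the 3 groups. The inhibitor compound, any vehicle and whether the replicates were separate cultures are likewise not given. Every p-value thus rests on array-to-array spread, part or all of which may be technical.

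Cdx1 and Cdx2 are caudal-type homeobox proteins that activate intestinal genes and, in mice, hold back the gastric programme. Gata4 and Gata6 are zinc finger proteins of endodermal epithelia, and in mice Gata4 marks the proximal small intestine and keeps ileal bile acid transport genes low there. Klf4 is a Krueppel-like factor of cells that have left the cell cycle, while its relative Klf5 is found in the dividing cells of the crypt. Sox9 is an HMG-box factor of the crypt base, where stem cells and Paneth cells lie. Elf3 is an epithelial ETS factor that in mice is needed for enterocyte differentiation and for expression of the TGF-beta type II receptor. The ligand acts through this receptor and its partner, which phosphorylate Smad proteins that bind DNA at short sequences such as CAGAC.

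Promoter sequence is printed for the 3 of the 8 genes whose entries in the promoter table used here could be printed, Klf4, Cdx2 and Elf3. They were chosen by that alone and not by their values, and are shown for the motifs they hold. Each line gives, 5′ to 3′ on the gene's own strand, the 250 bases before the annotated start, from RefSeq's table on build GRCm38.p6. Capitals mark CAGAC (or GTCTG on the other strand) in Cdx2 and Elf3, and GGGCGG (or CCGCCC), the GC box, in Klf4.
Klf4 (chr4:55532476-55532725, minus strand): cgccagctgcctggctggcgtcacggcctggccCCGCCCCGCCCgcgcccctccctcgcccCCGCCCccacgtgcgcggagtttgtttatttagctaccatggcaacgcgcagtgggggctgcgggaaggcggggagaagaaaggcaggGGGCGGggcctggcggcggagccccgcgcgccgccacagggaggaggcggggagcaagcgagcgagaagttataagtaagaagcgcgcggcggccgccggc
Cdx2 (chr5:147307250-147307499, minus strand): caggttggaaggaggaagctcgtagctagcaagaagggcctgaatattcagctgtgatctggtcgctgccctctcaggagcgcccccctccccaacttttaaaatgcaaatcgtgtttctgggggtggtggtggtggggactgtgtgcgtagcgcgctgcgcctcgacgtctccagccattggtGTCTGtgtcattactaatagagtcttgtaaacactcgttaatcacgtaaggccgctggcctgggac
Elf3 (chr1:135258473-135258722, minus strand): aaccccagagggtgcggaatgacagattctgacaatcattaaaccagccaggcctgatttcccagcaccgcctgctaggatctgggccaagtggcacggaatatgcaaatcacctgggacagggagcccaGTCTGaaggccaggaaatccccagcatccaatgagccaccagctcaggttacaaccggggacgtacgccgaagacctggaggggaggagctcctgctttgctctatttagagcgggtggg
Both motifs were searched on both strands of all 3 sequences. The Klf4 promoter held 4 GC boxes, 2 of which overlap by 1 base, and no CAGAC, and 74.0% of its bases were G or C, against a median of 52.4% over all promoters. Cdx2 held 1 CAGAC, 66 to 62 bases before the start, and Elf3 held 1, 120 to 116 bases before it. Neither held a GC box. Over the 32851 promoters of the table, 42.2% held CAGAC and 32.7% held GGGCGG in the same 250 bases, so either match is common. A match describes these letters and is not a binding site measured here.

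Values below are signals on the linear scale as deposited, and log2 changes are differences of log2(signal + 16) between group means ± SE, with n = 3 arrays in each group. Fold values are these log2 changes turned back to ratios, and the offset of 16 makes them smaller than the ratio of the signals themselves. A gene or probe set is said to have risen, fallen or changed where limma's p, adjusted by Benjamini-Hochberg over all features tested, was under 0.05. A probe set was tested if its signal passed the 40th percentile of its array, a signal of 25.9 to 32.0, on at least 3 of the 9 arrays. Of the 17 probe sets, 15 passed on all 9 arrays, so all 8 genes were tested. One Klf5 probe set (1430255_at, 6.66 to 19.7) and one Sox9 probe set (1433889_at, 4.08 to 15.5) were below the filter level on every array. The 3 groups had array medians of 46.1 to 57.9 and the same trimmed mean, and the median within-group SD of a gene was 0.13 on the log2 scale. The 3′ to 5′ log2 ratio of the actin control, a sign of RNA quality, was 0.47 (0.40 to 0.58) in ligand arrays, 0.21 (0.18 to 0.24) in inhibitor arrays and 0.41 (0.37 to 0.43) in untreated arrays. That of the Gapdh control was -0.27 (-0.29 to -0.25), -0.28 (-0.29 to -0.27) and -0.26 (-0.27 to -0.25) in the same order, with overlap between groups. The part of either ratio in the results was not tested.

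Sox9 and Klf4 were the members that moved in both comparisons with untreated organoids, each in opposite directions under the 2 treatments. Sox9 was higher with the ligand and lower with the inhibitor, while Klf4 was lower with the ligand and higher with the inhibitor. Cdx1, Cdx2 and Elf3 fell with the inhibitor and were not called with the ligand. Gata4 fell with the ligand, while neither Gata6 nor Klf5 passed the test against untreated organoids in either treatment.

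With the ligand, 1 of the 8 genes rose and 2 fell against untreated organoids, where 24.1% of all 12941 genes tested were called, 14.8% as higher and 9.36% as lower. With the inhibitor, 1 rose and 4 fell, where 45.1% of all genes were called, 21.2% as higher and 23.9% as lower. Ligand against inhibitor gave 4 higher and 2 lower, where 55.6% of all genes were called, 32.6% as higher and 23.0% as lower. The median log2 change of the 8 genes was 0.02 with the ligand and -0.20 with the inhibitor, against 0.05 and -0.01 over all genes. Arrays of the 2 groups did not overlap for 3 of the 8 genes with the ligand and 6 with the inhibitor against untreated, and for 6 in ligand against inhibitor, where 38.7%, 56.0% and 60.6% of all genes did not. Of the 15 probe sets, 5 were called with the ligand, 7 with the inhibitor and 10 in ligand against inhibitor, where 15.6%, 35.1% and 47.3% of all probe sets were, and none for the sum of both changes (14.6% of all). With 8 genes, these counts are read only against those shares.

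**Figure D1:**
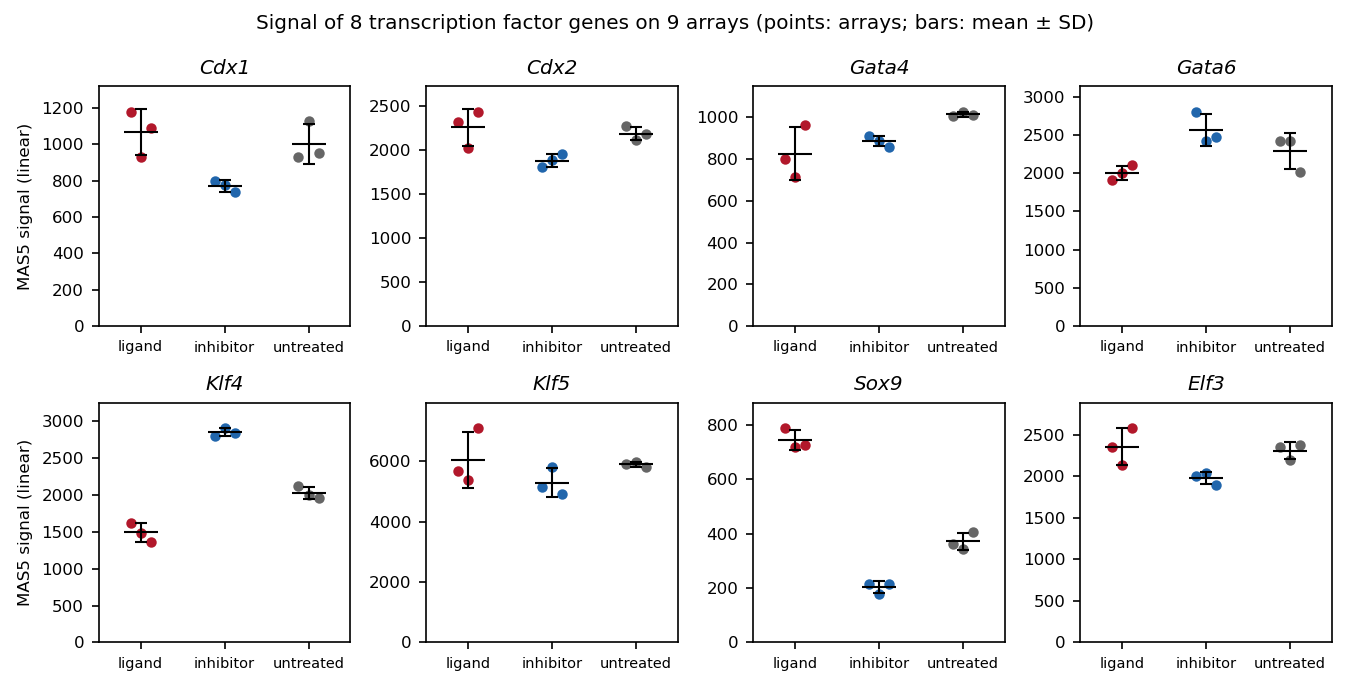
Signal of the probe set standing for each of the 8 genes on each array (vertical axis, linear signal), by group, with points for the 3 arrays and a bar for the mean. Sox9 lies between 719 and 788 in ligand arrays, between 179 and 216 in inhibitor arrays and between 345 and 406 in untreated arrays, and Klf4 takes the opposite order.

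Sox9 gave signals of 788, 719 and 726 in the ligand arrays, 216, 179 and 216 in the inhibitor arrays, and 363, 345 and 406 in the untreated arrays. No 2 groups overlapped, and the order was ligand, untreated, inhibitor. The mean was 745 ± 37.7 with the ligand and 371 ± 31.4 in untreated organoids (SD, n = 3 each), a log2 change of 0.98 ± 0.09 (limma adjusted p = 1.03e-05), or 1.97-fold. Inhibitor arrays averaged 203 ± 21.2, a log2 change of -0.82 ± 0.09 from untreated (limma adjusted p = 1.29e-05), or 1.77-fold lower. Ligand and inhibitor stood 3.48-fold apart, a log2 change of 1.80 ± 0.09 (limma adjusted p = 5.4e-09). In bulk RNA, fewer Sox9-expressing cells and less Sox9 RNA per cell cannot be told apart.

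The further Sox9 probe set 1424950_at gave 570, 631 and 525 with the ligand, 140, 133 and 102 with the inhibitor, and 241, 216 and 243 untreated. It took the same order without overlap, with log2 changes of 1.25 ± 0.12 for the ligand and -0.83 ± 0.12 for the inhibitor (adjusted p = 2.13e-05 and 0.000147 over all 28653 probe sets tested with limma). In size, the change of Sox9 exceeded that of 97.1% of all genes tested for the ligand and 91.5% for the inhibitor. The sum of its changes from untreated was 0.15 ± 0.16 (95% interval -0.20 to 0.51, limma adjusted p = 0.556), so the 2 changes could not be told from equal and opposite ones.

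Klf4 gave signals of 1624, 1481 and 1364 in the ligand arrays, 2800, 2901 and 2837 in the inhibitor arrays, and 2115, 1997 and 1958 in the untreated arrays. Here too no 2 groups overlapped, with the inhibitor highest and the ligand lowest. The log2 change was -0.44 ± 0.07 with the ligand (limma adjusted p = 0.000675) and 0.49 ± 0.07 with the inhibitor (limma adjusted p = 0.000105). These are 1.36-fold lower and 1.40-fold higher than untreated. Ligand against inhibitor gave -0.93 ± 0.07 (limma adjusted p = 1.82e-07). A further Klf4 probe set, 1417395_at, read 579, 543 and 726 with the ligand, 1462, 1393 and 1282 with the inhibitor, and 961, 1091 and 901 untreated. Its groups were separate in the same order, with log2 changes of -0.67 ± 0.11 and 0.48 ± 0.11 (limma adjusted p = 0.00109 and 0.00375). The sum of the changes of the Klf4 gene was 0.05 ± 0.13 (95% interval -0.22 to 0.32, limma adjusted p = 0.821).

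Klf5, the crypt relative of Klf4, was not called as a gene in any comparison. Its brightest probe set (1451021_a_at) gave 5670, 5365 and 7095 with the ligand, 5153, 5815 and 4901 with the inhibitor, and 5923, 5974 and 5802 untreated. All 3 groups overlapped, with log2 changes of 0.02 ± 0.10 for the ligand (95% interval -0.20 to 0.24) and -0.16 ± 0.10 for the inhibitor (95% interval -0.38 to 0.06; limma adjusted p = 0.895 and 0.222). Its dimmer probe set 1451739_at pointed the other way, with 663, 676 and 658 in ligand arrays, 871, 991 and 757 in inhibitor arrays, and 897, 765 and 677 in untreated arrays. That probe set was lower in ligand than in inhibitor organoids, at -0.37 ± 0.11 (limma adjusted p = 0.0135), where the brighter one gave 0.18 ± 0.10 as the gene's value (limma adjusted p = 0.142). The 2 probe sets of Klf5 thus disagree in sign, and the gene's call for ligand against inhibitor appeared after quantile normalization (adjusted p = 0.0163).

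**Figure D2:**
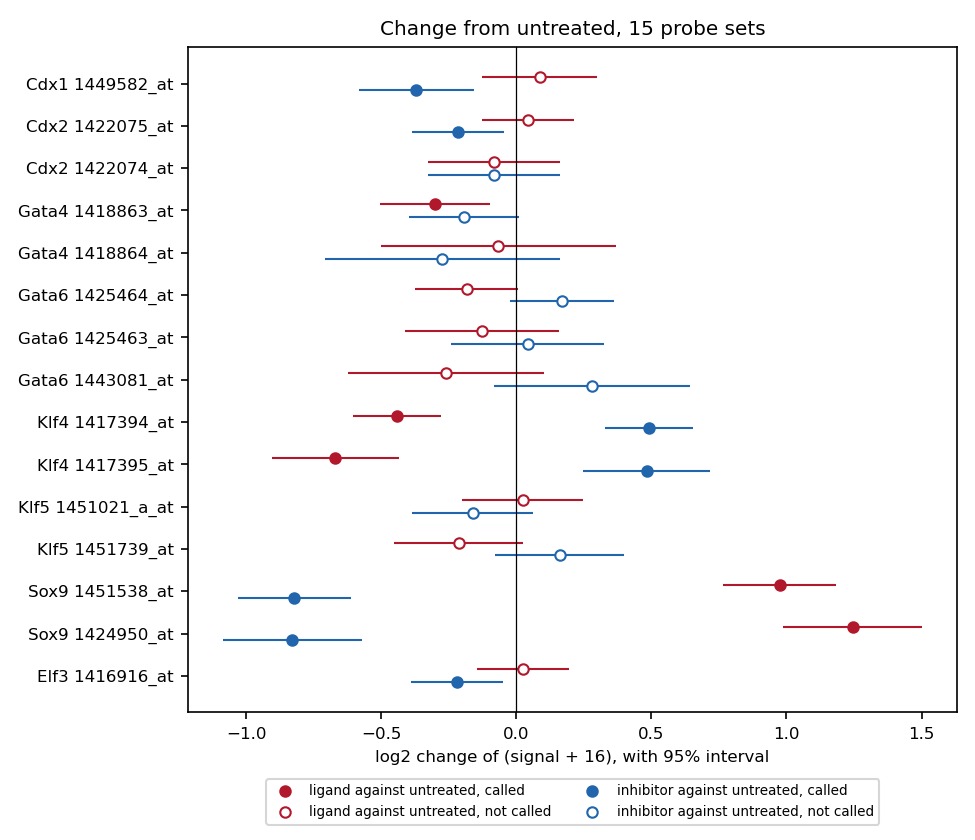
Change from untreated on the log2(signal + 16) scale with its 95% interval (horizontal axis) for each of the 15 tested probe sets of the 8 genes, in red for the ligand and in blue for the inhibitor, with filled points where limma's adjusted p over all probe sets was under 0.05. The 2 Sox9 and the 2 Klf4 probe sets agree in direction, while 1 of the 2 Cdx2 probe sets is called for the inhibitor and the 2 tested Klf5 probe sets lie on opposite sides of 0.

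Among the caudal factors, Cdx1 gave 1179, 932 and 1088 with the ligand, 797, 776 and 735 with the inhibitor, and 930, 1128 and 949 untreated. Every inhibitor array lay below all 6 others, while ligand and untreated arrays overlapped. Cdx1 fell with the inhibitor by 0.37 ± 0.10 on the log2 scale (limma adjusted p = 0.00612), and with the ligand its value was 0.09 ± 0.10 (95% interval -0.12 to 0.29, limma adjusted p = 0.565). Ligand against inhibitor gave 0.46 ± 0.10 (limma adjusted p = 0.00106), and 0.30 to 0.55 over the alternatives. It is read by 1 probe set.

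Cdx2 had a similar but smaller shift at its brighter probe set (1422075_at), with 2319, 2026 and 2439 in ligand arrays, 1806, 1888 and 1954 in inhibitor arrays, and 2270, 2116 and 2181 in untreated arrays. The inhibitor arrays were again below all others. Cdx2 fell by 0.22 ± 0.08 on the log2 scale with the inhibitor (limma adjusted p = 0.0332), and its value with the ligand was 0.04 ± 0.08 (95% interval -0.12 to 0.21, limma adjusted p = 0.739). Its further probe set (1422074_at) read 454, 433 and 373 with the ligand, 467, 386 and 405 with the inhibitor, and 462, 384 and 493 untreated, so all 3 groups overlapped. The fall of Cdx2 with the inhibitor missed the threshold in 7 of 20 alternatives, among them centring each array on its median (adjusted p = 0.152), the mean over its probe sets (0.106), no intensity trend (0.0665), and leaving out inhibitor replicate 1 (0.110) or 2 (0.0756) or untreated replicate 1 (0.105) or 3 (0.0707). Ligand against inhibitor gave 0.26 ± 0.08 (limma adjusted p = 0.0104), which was also lost after median centring (0.286) and with the mean over probe sets (0.140).

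Elf3 gave 2348, 2137 and 2578 with the ligand, 2006, 2037 and 1899 with the inhibitor, and 2355, 2198 and 2376 untreated. Its inhibitor arrays were below all others, and it fell with the inhibitor by 0.22 ± 0.08 on the log2 scale (limma adjusted p = 0.0308). With the ligand its value was 0.02 ± 0.08 (95% interval -0.14 to 0.19, limma adjusted p = 0.855), and ligand against inhibitor gave 0.24 ± 0.08 (limma adjusted p = 0.0147). The fall of Elf3 missed the threshold in 7 of 20 alternatives, which were median centring (adjusted p = 0.130), no intensity trend (0.0628), and leaving out inhibitor replicate 1 (0.0587), 2 (0.0511) or 3 (0.111) or untreated replicate 1 (0.0853) or 3 (0.0945). Ligand against inhibitor was lost after median centring (0.345) and without inhibitor replicate 3 (0.0619).

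Median centring moved the median log2 change of all genes for ligand against inhibitor to -0.09, against 0.07 with the deposited scale. The share of called genes that were higher became 40.5% for the ligand, against 61.2% with the deposited scale, 56.9% for the inhibitor, against 46.9%, and 42.1% for ligand against inhibitor, against 58.6%. The calls of Sox9 and Klf4 in all 3 pairwise comparisons, and those of Cdx1 for the inhibitor and for ligand against inhibitor, kept their direction and stayed under 0.05 in each of the 20 alternatives.

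Gata4 was the 1 member whose ligand and inhibitor arrays both lay below all untreated arrays. Its brighter probe set (1418863_at) gave 801, 715 and 963 with the ligand, 910, 888 and 860 with the inhibitor, and 1007, 1027 and 1009 untreated. The 2 treated groups overlapped each other. Gata4 fell with the ligand by 0.30 ± 0.09 on the log2 scale (limma adjusted p = 0.0282), and with the inhibitor its value was -0.19 ± 0.09 (limma adjusted p = 0.103). The sum of its changes from untreated was -0.49 ± 0.16 (limma adjusted p = 0.0366), the only one of 8 past the threshold, where 23.8% of all genes were called, 12.7% above 0 and 11.1% below. The untreated SD of 11.2 was small beside the ligand SD of 126, and the dimmer probe set 1418864_at overlapped between all groups, at 69.0 to 97.2 with the ligand, 56.9 to 99.2 with the inhibitor and 70.6 to 110.3 untreated. The fall with the ligand missed the threshold in 8 of 20 alternatives (adjusted p from 0.0583 to 0.288), among them leaving out ligand replicate 1 (0.0809) or 2 (0.110) or untreated replicate 1 (0.0680), 2 (0.0797) or 3 (0.0596), and the departure was lost in 11 of 19. Without ligand replicate 3, Gata4 kept its call for the ligand and was also called for the inhibitor (adjusted p = 0.0215) and for ligand against inhibitor (0.0159).

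Gata6 gave 1915, 2001 and 2101 with the ligand at its brightest probe set (1425464_at), 2805, 2422 and 2478 with the inhibitor, and 2427, 2417 and 2018 untreated. Ligand arrays were below all inhibitor arrays, and the untreated arrays overlapped both. Ligand against inhibitor gave -0.35 ± 0.09 (limma adjusted p = 0.00321), a call kept in each of the 20 alternatives. Against untreated the values were -0.18 ± 0.09 with the ligand and 0.17 ± 0.09 with the inhibitor (limma adjusted p = 0.144 and 0.131). Both passed after median centring (adjusted p = 0.0366 and 0.0394), and the ligand's also without untreated replicate 3 (0.0374). The dimmest Gata6 probe set, 1443081_at, was likewise lower with the ligand (94.2, 92.9 and 95.1) than with the inhibitor (128, 167 and 139), at -0.54 ± 0.17 (limma adjusted p = 0.0177). The remaining one, 1425463_at, overlapped between all groups at 501 to 662 with the ligand, 564 to 718 with the inhibitor and 511 to 669 untreated.

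Pairs of members were also compared through their log2 difference within each array, which any single scaling factor leaves almost unchanged. The difference of Klf4 minus Klf5 was -2.002 ± 0.316 with the ligand, -0.89 ± 0.11 with the inhibitor and -1.54 ± 0.05 untreated (SD, n = 3 each), without overlap between groups. Gata6 minus Gata4 was 1.27 ± 0.18 with the ligand, 1.52 ± 0.09 with the inhibitor and 1.16 ± 0.15 untreated, where only inhibitor and untreated arrays did not overlap. Cdx1 minus Cdx2 was -1.08 ± 0.10 with the ligand, -1.27 ± 0.11 with the inhibitor and -1.12 ± 0.20 untreated. In these 12 comparisons the 2-sided exact permutation test of 3 against 3 arrays can go no lower than p = 0.1 (0.15 after Benjamini-Hochberg adjustment). That value was reached by all 3 Klf4 minus Klf5 comparisons, by Gata6 minus Gata4 for the inhibitor, and by Cdx1 minus Cdx2 for ligand against inhibitor. Sox9 minus Klf4 reached it in all 3 as well, with a difference of 2.73 between ligand and inhibitor. For that pair the outcome was fixed in advance, since each gene alone was separate between all groups and in opposite order.

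Across the 9 arrays, which share the 3 treatments and 1 scaling, Pearson's r of log2(signal + 16) described which members ran together. Sox9 and Klf4 ran against each other (r = -0.97), Cdx2 with Elf3 (0.92) and Cdx1 with Cdx2 (0.80), while Gata6 ran with Klf4 (0.81) and against Sox9 (-0.85). Gata4 and Gata6 had r = 0.35. Among the 9680 tested genes with a mean signal of at least 100, the closest in pattern to Sox9 over these arrays was Pmepa1, an induced inhibitor of TGF-beta signalling (r = 0.996, with mean signals of 631 with the ligand, 83.7 with the inhibitor and 205 untreated). Ddx17, an RNA helicase, was next (r = 0.995). Klf4 was closest to Cab39l (0.995) and Tor1aip2 (0.994), Cdx1 to Ppm1m (0.987) and Fam72a (0.974), and Cdx2 to Qars (0.985) and Golgb1 (0.984). Gata4 was closest to Man2a1 (0.960) and Sepsecs (0.956), Gata6 to Cox19 (0.973) and Chchd7 (0.956), Elf3 to Bri3 (0.980) and Gdpd5 (0.968), and Klf5 to Hipk1 (0.938) and Eif4a1 (0.934).

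Other transcription factors of the intestinal epithelium included larger changes than those of Cdx2, Elf3 or Gata4. Of 20 listed, 16 were tested, and with the ligand 6 rose and 5 fell, while with the inhibitor 3 rose and 7 fell (all genes: 14.8% and 9.36% with the ligand, 21.2% and 23.9% with the inhibitor). Ehf, an epithelial ETS factor related to Elf3, rose with the ligand (log2 0.74 ± 0.07, adjusted p = 5.14e-06) and fell with the inhibitor (-1.19 ± 0.07, limma adjusted p = 2.73e-08). Foxa2, a forkhead factor of endoderm, did the same (0.78 ± 0.09 and -1.05 ± 0.09, limma adjusted p = 5.47e-05 and 1.34e-06). Hnf4g, a nuclear receptor of enterocytes, fell with the ligand by 1.01 ± 0.12, and Foxa1 rose with it by 0.57 ± 0.09 (limma adjusted p = 4.61e-05 and 0.000473). With the inhibitor Foxa3 fell by 0.85 ± 0.10 and Maf rose by 1.00 ± 0.13 (limma adjusted p = 1.66e-05 and 3.57e-05). The median log2 change of the 16 was 0.07 with the ligand and -0.09 with the inhibitor, against 0.05 and -0.01 over all genes.

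**Figure D3:**
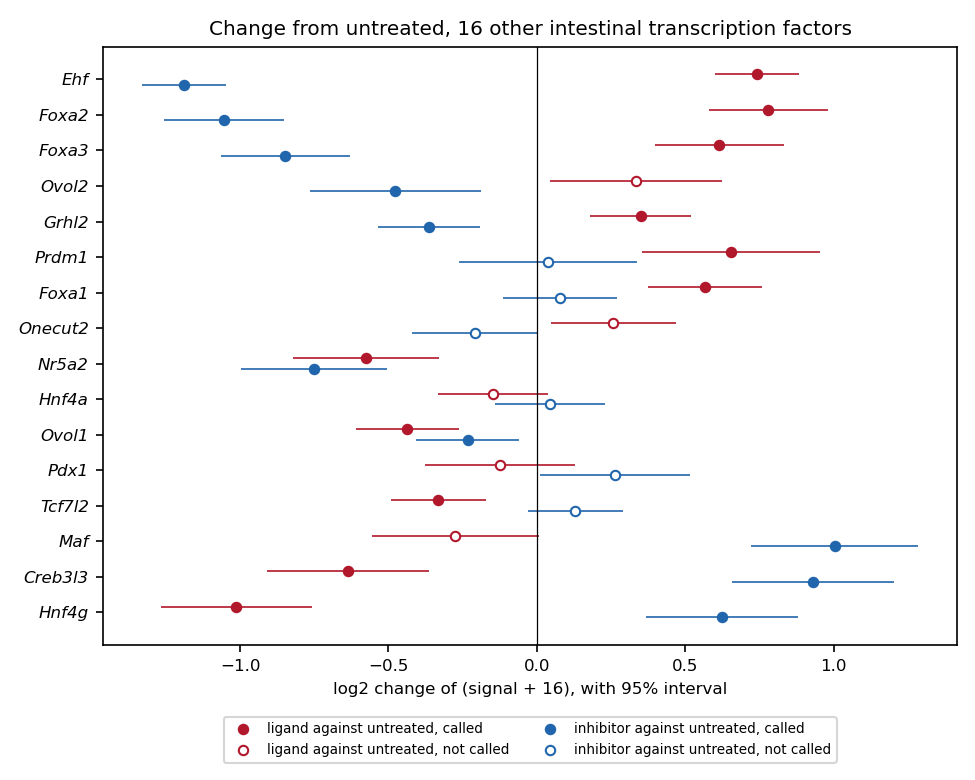
Change from untreated on the log2(signal + 16) scale with its 95% interval (horizontal axis) for the 16 other intestinal transcription factors tested, in red for the ligand and in blue for the inhibitor, with filled points where limma's adjusted p over all genes was under 0.05. Ehf, Foxa2, Foxa3 and Grhl2 lie on opposite sides of 0 under the 2 treatments with both values called, and so do Hnf4g and Creb3l3 in the other direction.

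Relatives of the members within their own families were also tested. Of 13 other Krueppel-like factors tested, 2 rose and 1 fell with the ligand, and 3 rose and 4 fell with the inhibitor. The called shares of these 13, 3 of 13 and 7 of 13, lie near the 24.1% and 45.1% of all genes called. Klf2 and Klf6 rose with the inhibitor as Klf4 did (1.28 ± 0.22 and 0.63 ± 0.08, limma adjusted p = 0.000325 and 2.13e-05), while Klf9 fell by 0.62 ± 0.07 and Klf13 by 0.49 ± 0.09 (limma adjusted p = 1.88e-05 and 0.000544). Over the alternatives the values for the inhibitor ran from 0.81 to 1.60 for Klf2 and from -0.66 to -0.26 for Klf9. Klf7 fell with the ligand by 0.44 ± 0.08 (limma adjusted p = 0.00144), and the rises of Klf3 (0.29 ± 0.08) and Klf10 (0.22 ± 0.06) were each lost in 4 of 20 alternatives (limma adjusted p = 0.0194 and 0.0233, up to 0.457 and 0.160). Of 4 other GATA factors and cofactors tested, Gata5 rose with the ligand (1.14 ± 0.11) and fell with the inhibitor (-0.52 ± 0.11, limma adjusted p = 1.23e-05 and 0.00205; -0.63 to -0.34 with the inhibitor over the alternatives). The GATA cofactor Zfpm1 fell with the inhibitor by 0.36 ± 0.08 (limma adjusted p = 0.00286).

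Of 8 other SOX factors tested, Sox4 and Sox12 took the directions of Sox9. These 2 of 8 lie near the 24.1% of all genes called with the ligand and below the 45.1% called with the inhibitor. Sox4 rose with the ligand by 0.60 ± 0.08 and fell with the inhibitor by 1.02 ± 0.08 on the log2 scale (limma adjusted p = 0.000137 and 5.19e-07). Sox12 had 0.48 ± 0.14 and -0.49 ± 0.14 (limma adjusted p = 0.0234 and 0.0115), calls that some alternatives did not keep (adjusted p up to 0.087 and 0.0531). The other 6 were not called in either comparison. Of 5 other epithelial ETS factors, Ehf and the goblet cell factor Spdef rose with the ligand, and both fell with the inhibitor. Of all genes, 14.8% rose with the ligand and 23.9% fell with the inhibitor. Spdef had 0.69 ± 0.14 and -1.11 ± 0.14 (limma adjusted p = 0.00258 and 2.26e-05). Elf2 also fell with the inhibitor (-0.35 ± 0.08, limma adjusted p = 0.00253), a call lost with the mean over its probe sets (0.113).

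Of 14 genes that Cdx2, Cdx1 or Gata4 are known to control in small intestine, 12 were tested, and with the ligand 1 rose and 4 fell, against 14.8% and 9.36% of all genes. With the inhibitor 8 of the 12 rose and none fell, against 21.2% and 23.9% of all genes. Cdx1 and Cdx2 fell there, Cdx2 with a call lost in 7 of 20 alternatives, and any tie to these genes was not tested. Krt20, a keratin of mature enterocytes, averaged 2058 ± 117 with the ligand, 4974 ± 197 with the inhibitor and 2333 ± 32.0 untreated, a log2 change of 1.09 ± 0.07 with the inhibitor (limma adjusted p = 5.84e-08). Slc15a1, a peptide transporter, rose with the inhibitor by 1.39 ± 0.14 and fell with the ligand by 0.67 ± 0.14 (limma adjusted p = 3.63e-06 and 0.00327). Mep1a, a brush border protease, and Heph, a ferroxidase, rose with the inhibitor (1.15 ± 0.11 and 0.76 ± 0.11, limma adjusted p = 2.03e-06 and 6.86e-05). With the ligand Lct, the enzyme lactase, rose by 0.92 ± 0.09, while Fabp2, a fatty acid binding protein, fell by 0.48 ± 0.10 and Gucy2c, a guanylate cyclase receptor, by 0.35 ± 0.09 (limma adjusted p = 7.75e-06, 0.00326 and 0.0129). The median log2 change of the 12 was -0.22 with the ligand and 0.39 with the inhibitor.

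**Figure D4:**
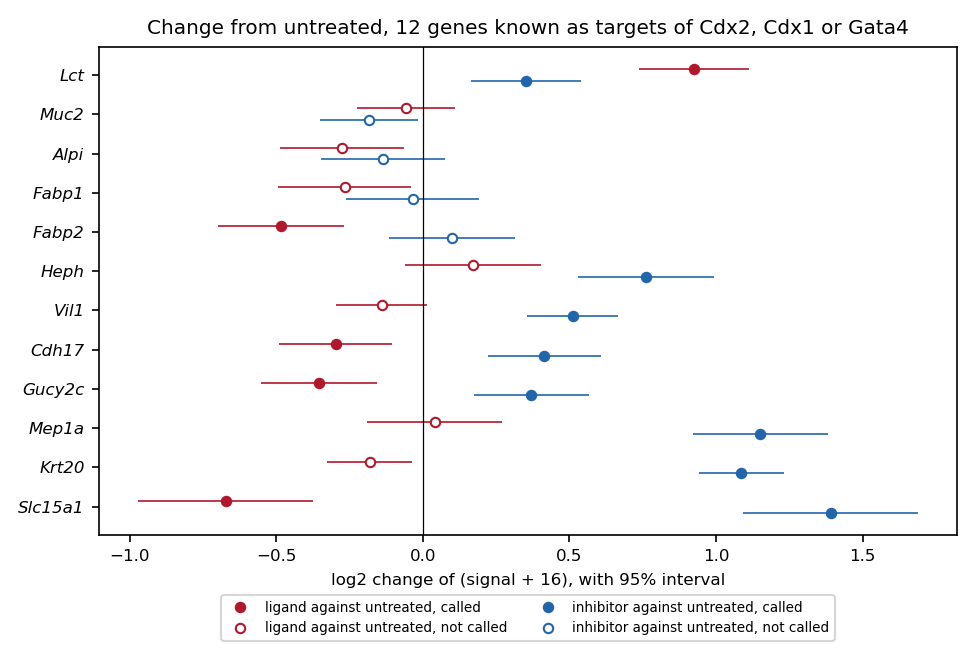
Change from untreated on the log2(signal + 16) scale with its 95% interval (horizontal axis) for the 12 tested genes known to be controlled by Cdx2, Cdx1 or Gata4, in red for the ligand and in blue for the inhibitor, with filled points where limma's adjusted p over all genes was under 0.05. With the inhibitor 8 of the 12 are called and all 8 lie above 0, and with the ligand Lct alone is called above 0.

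Several of these are also genes of absorptive enterocytes, and markers of cell types moved as well. Alpi, Fabp1, Fabp2 and Lct stand in both the target list and the enterocyte list, so the counts of these lists share their values. The summed signal of 9 enterocyte markers was 46513 to 53521 with the ligand, 68351 to 83292 with the inhibitor and 60229 to 67190 untreated, and 6 of the 9 rose with the inhibitor while 5 fell and 1 rose with the ligand. Of 12 genes of stem and dividing cells tested, 7 rose and none fell with the ligand, and none rose and 11 fell with the inhibitor. Over all genes, 14.8% rose and 9.36% fell with the ligand, and 21.2% rose and 23.9% fell with the inhibitor. Olfm4, a stem cell marker, averaged 14648 ± 1333 with the ligand, 819 ± 169 with the inhibitor and 12861 ± 441 untreated. The part of these shifts in the values of Sox9, Klf4 and the other factors was not tested.

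The ileal genes that Gata4 holds down in mouse proximal intestine were tested in 2 of 4 cases, and Fabp6 and Slc10a2 were under the filter. Both tested genes encode subunits of a bile acid exporter and fell with the ligand, Slc51b by 0.98 ± 0.15 and Slc51a by 0.66 ± 0.10 (limma adjusted p = 0.000386 and 0.000392). Slc51b rose with the inhibitor by 0.59 ± 0.15 (limma adjusted p = 0.00564). Over all genes, 9.36% fell with the ligand and 21.2% rose with the inhibitor. Gata4 also fell with the ligand, a call lost in 8 of 20 alternatives, and any tie between it and these genes was not tested.

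Gastric genes, which Cdx2 holds back in mouse intestine, were tested in 9 of 16 cases. With the ligand 5 rose and none fell, and with the inhibitor 1 rose and 3 fell, with medians of 0.61 and -0.15 against 0.05 and -0.01 over all genes. Of all genes 14.8% rose and 9.36% fell with the ligand, and the 4 of 9 called with the inhibitor lie near the 45.1% of all genes called. Cym, a milk-clotting protease of the stomach, averaged 14293 ± 1095 with the ligand, 36.2 ± 4.69 with the inhibitor and 30.2 ± 8.60 untreated, a log2 change of 8.29 ± 0.13 with the ligand (limma adjusted p = 1.23e-13). The untreated mean of Cym is at the filter level, and its log2 change ran from 7.25 to 8.88 over the alternatives. Gkn3, a gastrokine, averaged 1299 ± 34.5 with the ligand, 16.03 ± 9.06 with the inhibitor and 209.7 ± 19.3 untreated, with log2 changes of 2.55 ± 0.17 and -2.86 ± 0.17 (limma adjusted p = 1e-06 and 5.6e-08). The inhibitor mean of Gkn3 is below the filter level, so the size of that fall depends on the offset and probe set, from -3.82 to -1.78 over the alternatives. Anxa10, an annexin of gastric epithelium, rose under both treatments (1.41 ± 0.16 with the ligand and 1.29 ± 0.16 with the inhibitor, limma adjusted p = 4.58e-05 and 3.01e-05). Cblif, gastric intrinsic factor, was called higher with the ligand (63.3 ± 13.2, against 8.76 ± 5.97 untreated, limma adjusted p = 0.000291). Its untreated mean is below the filter level, so it can have passed the filter only through treated arrays where it is high. Its call thus adds no independent weight to the count of gastric genes that rose. The log2 value of 1.69 ran from 0.80 to 2.87 over the 19 alternatives in which it was tested. Atp4a and Tff2 fell with the inhibitor (-0.62 ± 0.13 and -0.84 ± 0.24, limma adjusted p = 0.0012 and 0.0109), Tff2 with values of -1.16 to -0.48 over the alternatives. The stomach mucin Muc5ac, the pepsinogen Pgc, Gkn1, Gkn2, Atp4b and Sox2 were under the filter. Of the colonic genes 1 of 7, the water channel Aqp8, was tested and was not called in either comparison.

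Markers of the epithelium itself were present in every group, with all 8 tested and summed signals of 76811 to 90001 with the ligand, 79561 to 92846 with the inhibitor and 76301 to 82323 untreated. Of the markers of other tissues, Col1a1, Col3a1, Dcn and Lum of fibroblasts, Ptprc, Cd3e, Cd4, Itgam and C1qa of leukocytes and Pecam1, Cdh5 and Tek of endothelium stayed below the filter level on every array. The filter was passed by 5 of the 9 fibroblast and muscle markers, 2 of the 7 leukocyte markers and 1 of the 4 endothelial markers. The 9 fibroblast and muscle markers summed to 453 to 478 with the ligand, 288 to 343 with the inhibitor and 379 to 404 untreated, of which Vim fell with the inhibitor (-1.11 ± 0.14, limma adjusted p = 3.05e-05). The 7 leukocyte markers summed to 154 to 182, 204 to 239 and 157 to 198 in ligand, inhibitor and untreated arrays, and 1 of the 2 tested, Cd68, rose with the inhibitor (0.66 ± 0.15, limma adjusted p = 0.00258). The 4 neuron and glia markers summed to 137 to 150 with the ligand, 158 to 207 with the inhibitor and 81.9 to 117 untreated, without overlap, and none was below the filter level on every array. Of these 2 were tested, and S100b rose with the inhibitor (0.58 ± 0.19, limma adjusted p = 0.0225), while Sox10 was not called. The count of neuron and glia markers called higher with the inhibitor moved in 9 of 20 alternatives, from 0 to 2. The part of these markers in the values of the 8 factors was not tested. The 4 endothelial markers summed to 58.1 to 76.1, 58.4 to 95.1 and 66.7 to 84.0 in the same order of groups.

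Other lineages of the epithelium also moved. Goblet cell markers summed to 34188 to 42514 with the ligand, 29507 to 34672 with the inhibitor and 35405 to 42205 untreated, and 1 of 9 rose and 2 fell with the ligand, while none rose and 4 fell with the inhibitor. Paneth cell markers summed to 22881 to 29916, 15972 to 17546 and 16330 to 21552 in ligand, inhibitor and untreated arrays, and 2 of 6 rose and none fell with the ligand, while none rose and 1 fell with the inhibitor. Tuft cell markers summed to 619 to 667 with the ligand, 137 to 169 with the inhibitor and 247 to 329 untreated, the same order as Sox9 and without overlap, and 3 of 5 rose with the ligand while 2 fell with the inhibitor. The lowest array signals of these 5 markers ran from 6.92 (Pou2f3) to 30.5 (Trpm5), near or below the filter level. Enteroendocrine markers summed to 10613 to 11303 with the ligand, 9248 to 9585 with the inhibitor and 8107 to 9471 untreated, and 5 of 7 rose with the ligand, while 3 rose and 1 fell with the inhibitor. These counts stand against 14.8% higher and 9.36% lower of all genes with the ligand, and 21.2% and 23.9% with the inhibitor. The enteroendocrine count lower with the inhibitor moved in 8 of 20 alternatives, from 0 to 2. The Paneth count lower with the inhibitor moved in 4 of 20, from 1 to 3. The part of these marker shifts in the values of the 8 factors was not tested.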

How the data were processed

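RNA was extracted and amplified for the 3′ assay, per the labels' protocols, and hybridised to Affymetrix Mouse Genome 430 2.0 arrays. What the authors deposited are linear intensities, 1 for each probe set on each array, made with MAS5 per the submitters' processing notes; no source used here states its version. The trimmed mean (2% off each end) was the same on all 9 arrays, so the deposited table already has 1 scale, which removes differences in total RNA. The number of arrays, 3 per group, limits the precision.

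Of the 45101 probe sets, 34958 had 1 gene symbol in the platform annotation, 932 had several, 9211 had none and 64 were controls, which were left out. No member probe set had several symbols. Genes were matched to a mouse gene table for 34754 probe sets, and no symbol changed. Signals were taken as log2(signal + 16), which understates changes of dim genes. The filter asked for a signal over the 40th percentile of an array, on 3 or more of the 9. Each gene was represented by its probe set with the highest mean, and every probe set was also fitted by itself. A linear model of the 3 group means was fitted with limma 3.58.1 in R 4.3.3, with an intensity trend, 6 residual degrees of freedom and 2-sided tests adjusted over all features. The contrasts were the 3 pairwise ones and the sum of both changes from untreated, called the departure from opposite effects. The pipeline was tested on simulated data.

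The members, gene lists and tests were chosen with earlier results of these data known. Named genes are all members, up to 4 genes of smallest p per list and comparison, and the 2 genes most correlated with each member. Alternatives were other offsets, filters, scalings, variance models, sample sets and probe set rules, a replicate block, and leaving out each array.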

Additional observations from a re-analysis of the deposited data

How the results depend on the processing

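Over the 8 genes, 4 contrasts and all alternatives, 568 values kept their direction and side of the threshold, 37 called values lost the threshold, 8 gained it and 19 values, none of them called, turned sign. Median centring gave 2 members higher and 2 lower for the inhibitor, and 2 higher for ligand against inhibitor; over probe sets it gave 2 lower for the inhibitor and 2 higher for ligand against inhibitor. Without the intensity trend 2 members were lower for the inhibitor and 1 for the ligand, and 3 probe sets were lower for the inhibitor. With no filter 3 probe sets were lower for the inhibitor. The 2-group fit and the mean over probe sets each left 1 member lower for the ligand. The departure had 0 members lower with no filter, without the trend and with the mean over probe sets, and 1 probe set lower with the filter at the 60th percentile. Leaving out each array in turn gave 2 to 5 members lower for the inhibitor, 1 to 2 lower for the ligand and 0 to 1 for the departure. Over probe sets it gave 2 to 6 lower for the inhibitor, 3 to 5 higher and 3 to 6 lower for ligand against inhibitor, and 0 to 1 for the departure. Over the whole table it gave 2024 to 3405 genes for the departure, and 2909 to 4440 probe sets for the ligand and 2606 to 4756 for the departure.

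The values that turned sign were small. For the ligand, median centring gave -0.043 for Cdx2, -0.062 for Klf5 and -0.062 for Elf3, the mean over probe sets gave -0.020 for Cdx2 and -0.095 for Klf5, and leaving out ligand replicate 3 gave -0.013 for Cdx2, -0.097 for Klf5 and -0.043 for Elf3, which had -0.011 without untreated replicate 2. The mean over probe sets gave Klf5 0.00026 for the inhibitor and -0.095 for ligand against inhibitor, where Gata4 had 0.049. For the departure, Klf4 had -0.069 with that mean and -0.014 without ligand replicate 1, and Gata6 had 0.017 without ligand replicate 1, 0.025 and 0.0084 without inhibitor replicates 2 and 3, and 0.074 and 0.068 without untreated replicates 1 and 2. Left-out arrays otherwise gave at most 0.12 for Cdx2, 0.10 for Klf5 and 0.092 for Elf3 (ligand), 0.11 for Klf4 (departure), and down to -0.19 for Gata6. The cause was not tested.

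No deviation shared by same-numbered arrays was seen: their deviations had r of -0.08 to 0.07 over 9 pairs, against -0.08 to 0.09 over 18 pairs of different number. This cannot tell whether same-numbered arrays were set up together. The replicate block changed no count of member genes and called 3013 genes for the ligand, 5759 for the inhibitor, 7151 for ligand against inhibitor and 2975 for the departure, where the fit without it called 3125, 5837, 7189 and 3079.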
